A study of Mus musculus with 8 samples.

Results

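The genes described here are the ligands, receptors, extracellular inhibitors, Smad proteins and Id targets of the bone morphogenetic protein (BMP) and transforming growth factor beta (TGF-beta) pathways, read in astrocytes sorted from the mouse spinal cord. They were chosen by symbol, as every gene named Bmp, Gdf or Smad with a number, every Bmpr, Acvr and Inhb gene, Tgfb1 to Tgfb3, Tgfbr1 to Tgfbr3, Id1 to Id4, Bmper, Nog, Chrd, Grem1 and Fst. This gave 58 of the 39179 gene identifiers in the count tables. The choice was by name and not by measured values, although earlier results of these data were known, and the name pattern also took 2 genes, Bmp1 and Bmp2k, that belong by name and not as ligands.

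The study compared 2 groups of 4 RNA-seq libraries. The control libraries, named S1, S2, S6 and S7, came from cre-negative mice given as wild-type. The conditional knockout (cKO) libraries, S3, S4, S5 and S8, came from mice with Aldh1l1-cre and floxed/floxed alleles of Kir4.1, the inward rectifier potassium channel of astrocytes that is encoded by Kcnj10. All cells in both groups were sorted for an Aldh1l1-GFP reporter, all mice were of a mixed swiss-webster strain, and all were 12 to 14 days old. The Aldh1l1 promoter drives both the reporter and, in cKO mice, the cre, so cre expression itself also differed between the groups. The labels do not say whether control mice carried floxed alleles or whether animals were pooled, and no label gives their sex. The series' title sets the comparison in the question of how astrocytic Kir4.1 bears on fast motor neurons.

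Ligands of this family are secreted dimers that bring together type I and type II receptor kinases at the cell surface. The type I receptor then phosphorylates receptor-regulated Smads: Smad1, Smad5 and Smad9 on the BMP branch, and Smad2 and Smad3 on the TGF-beta and activin branch. These join Smad4 and enter the nucleus, where the Id genes are classical direct targets of the BMP branch. Smad6 and Smad7 feed back on the receptors, and Noggin, Chordin, Gremlin and Follistatin bind ligands outside the cell. In the developing spinal cord BMP signals pattern dorsal progenitors and favour the astrocyte fate over the oligodendrocyte fate, and TGF-beta signals are part of the response of astrocytes to injury.

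Smad proteins bind short DNA elements, and the sequences before the start sites of the pathway genes with a RefSeq entry were searched for them. Sequences of 6 genes are printed. Gdf15, Tgfb2, Inhba and Id3 are shown because their libraries did not overlap between groups, and Id2 and Id4 because they are Id genes with the GC-rich element. Smad4, whose libraries did not overlap either, has no entry. The sequences are RefSeq's on GRCm38.p6, 5′ to 3′ on the gene's strand, and cover the part of the 250 bases before the start that lies outside annotated exons. Capitals mark matches to GGCGCC, the GC-rich element, or to CAGAC, the core of the Smad-binding element, on either strand (GTCTG is CAGAC read on the other strand).
Gdf15, chr8:70632457-70632706, minus strand: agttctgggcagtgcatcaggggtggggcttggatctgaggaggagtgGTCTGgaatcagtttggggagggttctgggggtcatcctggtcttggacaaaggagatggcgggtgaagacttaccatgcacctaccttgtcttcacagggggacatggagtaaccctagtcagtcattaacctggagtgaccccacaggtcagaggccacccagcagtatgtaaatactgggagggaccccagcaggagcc
Tgfb2, chr1:186706157-186706239, minus strand: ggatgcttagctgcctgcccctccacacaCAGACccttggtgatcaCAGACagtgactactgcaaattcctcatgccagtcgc
Inhba, chr13:16011601-16011850, plus strand: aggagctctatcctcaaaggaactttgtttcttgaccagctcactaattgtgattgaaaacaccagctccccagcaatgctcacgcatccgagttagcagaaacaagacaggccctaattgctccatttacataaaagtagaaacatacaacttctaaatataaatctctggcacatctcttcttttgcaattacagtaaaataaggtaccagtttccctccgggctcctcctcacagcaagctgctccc
Id2, chr12:25096254-25096342, minus strand: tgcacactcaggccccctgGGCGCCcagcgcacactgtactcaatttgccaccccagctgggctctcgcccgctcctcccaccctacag
Id4, chr13:48260866-48261115, plus strand: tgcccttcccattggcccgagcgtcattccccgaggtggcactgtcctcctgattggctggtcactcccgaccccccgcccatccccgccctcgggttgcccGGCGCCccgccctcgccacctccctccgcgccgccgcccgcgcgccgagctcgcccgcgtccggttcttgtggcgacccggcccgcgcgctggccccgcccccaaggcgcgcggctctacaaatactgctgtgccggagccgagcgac
Id3, chr4:136143647-136143667, plus strand: ctcggcgtCAGACcagcctaa
Id3, chr4:136143746-136143766, plus strand: ccttggcgGTCTGttttgaat

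The stretch before the Id3 start lies within an annotated exon, so only 21 bases around each of its 2 matches are printed, which begin 167 and 68 bases before the start. Gdf15 held 1 CAGAC match in the stretch shown. Its other RefSeq window, chr8:70632046-70632345, held 0 in its 54 bases outside exons and 1 over its 250 bases before the start. Tgfb2 held 2 CAGAC matches, and the Inhba window held neither element. Id2 and Id4, which were chosen for that element, each held 1 GGCGCC. Over the 250 bases before the start in all 32851 RefSeq windows, 9.59% held GGCGCC and 42.2% held CAGAC. These shares count annotated exon bases too, unlike the stretches printed for genes other than Id3. Of the 49 windows of the 41 pathway genes with an entry, 22.4% and 42.9% did. The palindromic Smad-binding element GTCTAGAC, which contains neither CAGAC nor GTCTG, was in 0.167% of all windows and in 0 of the 49. A match describes these letters only.

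The libraries held 13892736 (control S2) to 25065686 (cKO S8) reads assigned to genes, of which 33.82% to 46.3% fell on rRNA-like transcripts. Genes with any read were fewest in cKO S5, at 17312, with control S7 next at 17984 and cKO S3 highest at 20470. Several genes below have their lowest or highest value in cKO S5, and the part of its low gene number in this was not tested. Kcnj10, the targeted gene, was at 1181 to 2306 CPM (read counts scaled to a common library size) in the control libraries and at 27.2 to 37.6 CPM in the cKO libraries, so every library matched its label. The scaling used edgeR's TMM factors. All 10 astrocyte markers were detected, and their mean log2 CPM was 9.64 ± 0.22 (SD, n = 4) in control and 9.80 ± 0.083 in cKO libraries. Of these markers 2 passed edgeR's threshold, both higher in cKO. Aldh1l1, whose promoter drives the sorting reporter and the cre, was at 131 to 152 CPM in control and 245 to 350 CPM in cKO libraries (log2 fold change 1.01, adjusted p = 0.01794), and Aqp4 was at 1588 to 2454 and 3373 to 5268 CPM (1.10, adjusted p = 0.02435). Their part in the differences below was not tested. The replicates are 4 biological replicates per group in the series' design text. No 2 libraries agreed within sampling noise. In a second deposited table, of FPKM values, only 3 of 8 columns tracked the count library of their own name, though all 8 tracked one of their own group, so values are given by the names of the count tables.

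Of the 58 genes, 42 had enough reads for a test and 16 did not. Of the untested genes, 5, Bmp10, Gdf2, Gdf5, Gdf7 and Inhbe, had 0 reads in all 8 libraries. Among the tested genes, Gdf15 alone passed the filter on low counts through the cKO libraries only, with 0 control libraries and 4 cKO libraries at the cutoff of 0.5548 CPM.

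None of the 42 tested genes differed between the groups at an adjusted p under 0.05 with edgeR's quasi-likelihood test, where 0.318% of all 14757 genes tested did. The lowest adjusted p was 0.1347, for Gdf15. An unadjusted p under 0.05 was found for 9 genes, 7 higher and 2 lower in cKO. That is 21.4% of the tested pathway genes, against 9.81% of all genes tested (5.03% higher and 4.77% lower). Gdf15 entered the test only through the group where it was high, and without it 8 of 41 genes (19.5%) had such a p. The limma-voom fit called 0 of the 42, with 0.325% of all genes called. DESeq2 called 3, Gdf15, Id3 and Tgfb3, all higher in cKO, where it called 2.49% of all genes.

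The directions were mixed across the pathway. Of the 42 genes, 24 had a higher and 18 a lower fitted level in cKO, and 57.1% higher compares with 48.4% of all genes tested. With plain library totals as the scaling, 28 of the 42 were higher, and the median log2 fold change of all genes moved from -0.02 to 0.09. The median of the pathway genes was 0.05, and 26 of the 42 lay within 0.5 of 0 on the log2 scale. In 5 genes (11.9%) the 4 libraries of one group all lay above the 4 of the other: Gdf15, Id3, Smad4 and Inhba higher and Tgfb2 lower in cKO. Such separation was seen in 6.34% of all genes tested (3.39% higher, 2.94% lower), and without Gdf15 in 4 of 41 pathway genes (9.76%).

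**Figure D1:**
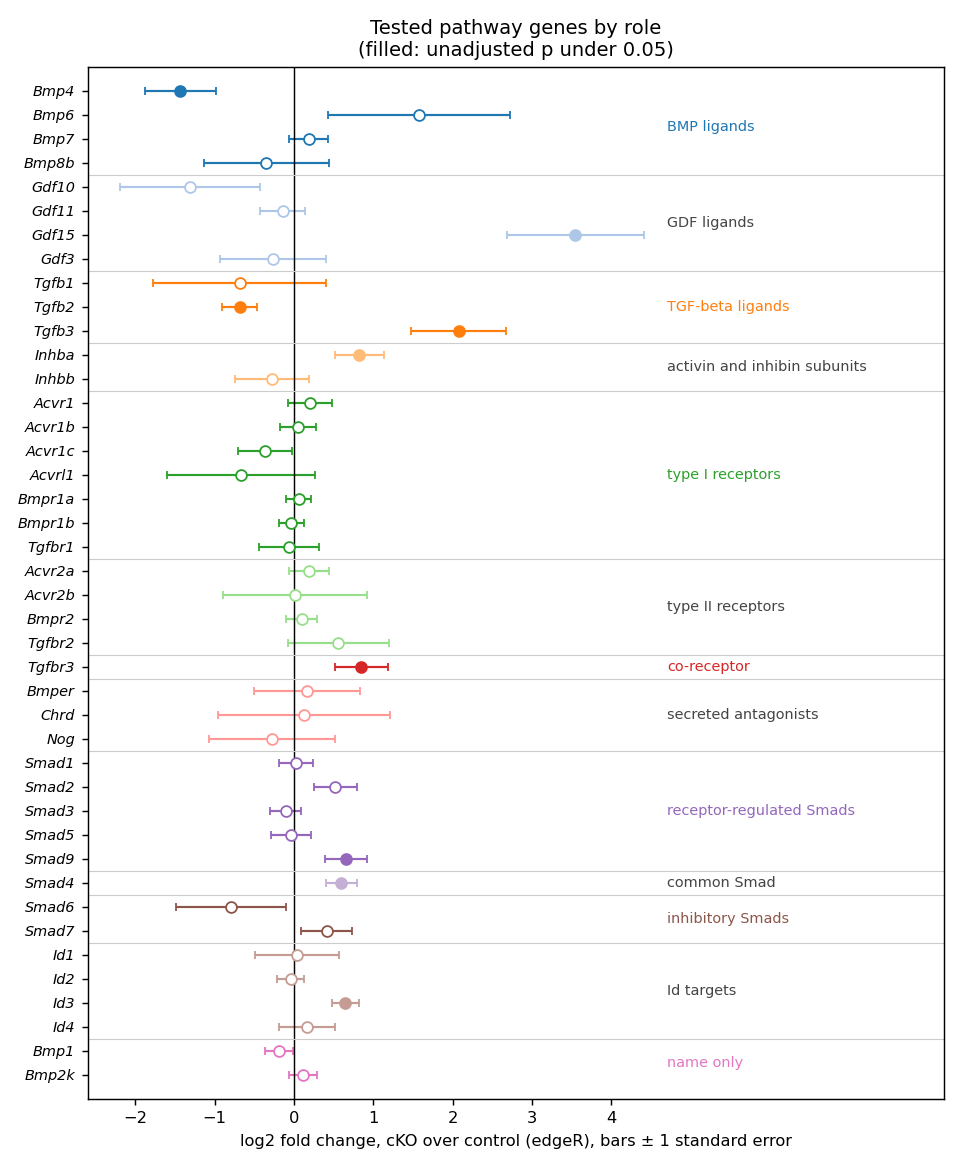
Fitted log2 fold change, cKO over control, of the 42 tested genes by role, with bars of 1 standard error on each side and filled points for an unadjusted p under 0.05. The 9 filled points are spread over ligands, the co-receptor, Smads and Id3, and no type I or type II receptor is filled.

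Among the 10 BMP ligands, Bmp4 and Bmp7 were the ones with clear expression. Bmp4 (chr14:46383520-46390669), which dorsal cells and oligodendrocyte precursors secrete, was at 13.3, 8.08, 43.0 and 35.4 CPM in the control libraries, in the order S1, S2, S6 and S7 used throughout. In the cKO libraries, in the order S3, S4, S5 and S8 used throughout, it was at 12.2, 8.94, 7.35 and 8.52 CPM. Control S6 and S7 were high and the other 2 control libraries lay in or next to the cKO range, so the groups overlapped. The means were 25.0 ± 16.9 and 9.25 ± 2.08 CPM (SD, n = 4), 2.70-fold lower in cKO. A fitted log2 fold change of -1.43 with a standard error (SE) of 0.45 did not pass edgeR's threshold (adjusted p = 0.2741, unadjusted p = 0.007188). The Bmp4 exons overlap an opposite-strand gene over 3.96% of their length.

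Markers of oligodendrocyte precursors and committed precursors (OPC) were high in the same libraries as Bmp4. All 8 markers of that list had a lower fitted level in cKO, none at an adjusted p under 0.05, and none was at 0 in any library. Their summed level was 701, 524, 1233 and 1846 CPM in the control libraries, and 786, 487, 483 and 422 CPM in the cKO libraries. The libraries with the most Bmp4, control S6 and S7, were also the 2 with the highest OPC level. The mean log2 level of the list was 6.15 ± 0.86 in control and 5.37 ± 0.36 in cKO libraries (exact 2-sided permutation p = 0.2, n = 4 each, BH-adjusted 0.45 over 9 marker lists). The part of these cells in the Bmp4 difference was not tested. In bulk libraries, fewer cells of a type and less RNA per cell cannot be told apart.

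**Figure D2:**
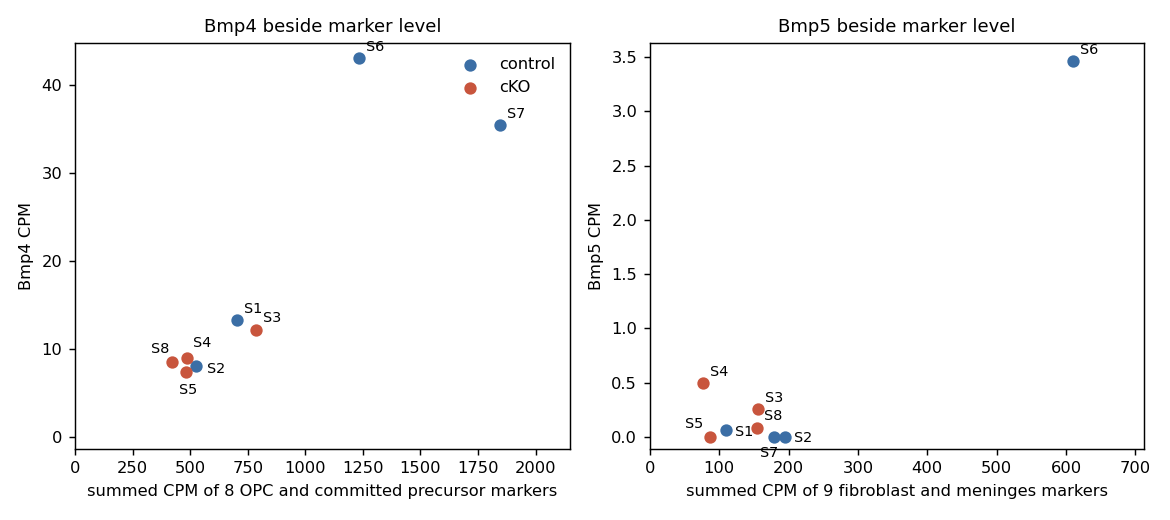
Left, Bmp4 CPM against the summed CPM of 8 OPC markers, and right, Bmp5 CPM against the summed CPM of 9 fibroblast and meninges markers, with 1 point per library (4 control, 4 cKO). Control S6 and S7 hold both the most Bmp4 and the highest OPC level, and control S6 holds both the most Bmp5 and the highest fibroblast level.

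Bmp7, a ligand of meninges and glia, was at 33.1 ± 7.34 CPM in control and 37.7 ± 10.8 CPM in cKO libraries. The 95% interval of its log2 fold change ran from -0.35 to 0.72. Bmp6 was low, at 0.447 ± 0.496 and 1.36 ± 1.01 CPM, with 0 in cKO S5. Its fitted log2 fold change of 1.58 had an SE of 1.15 (adjusted p = 0.7024). Bmp8b was at or under 1.32 CPM in every library.

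The 6 BMP ligands without a test had at most 82 reads each over all 8 libraries, and in Bmp3, Bmp5 and Bmp8a most reads came from 1 library. Bmp5 had 63 of its 82 reads in control S6. That library also had the highest summed level of 9 fibroblast and meninges markers, 609.8 CPM, where the lowest control library was at 110.0 and the cKO libraries ranged from 76.7 to 155.8 CPM. Dcn, Lum, Col3a1 and Slc6a13 of that list were at 0 in control S1, cKO S4 and cKO S5. The part of these cells in the Bmp5 reads was not tested. An opposite-strand gene overlaps 46.7% of the Bmp5 exon length. Group means of Bmp5 by counts were 0.881 ± 1.72 CPM in control and 0.210 ± 0.220 CPM in cKO libraries. In the authors' FPKM they ran the other way, 0.291 in control and 0.454 in cKO, so its direction is uncertain. Bmp8a had 51 of its 54 reads in control S7, and Bmp2, Bmp3 and Bmp15 had 53, 6 and 26 reads in all.

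Gdf15, a divergent member of the family that is induced by cell stress and signals through its own receptor in the hindbrain, was at the floor of detection in control libraries. It passed the filter on low counts through the cKO libraries alone, so its p and its lack of overlap are given as a description of these libraries. Gdf15 (chr8:70629393-70632456) was at 0.0634, 0.437, 0.165 and 0.189 CPM in the control libraries, from 1, 6, 3 and 4 reads. In the cKO libraries it was at 3.88, 1.27, 3.88 and 1.11 CPM, from 76, 28, 68 and 26 reads. Every cKO library lay above every control library, with cKO S3 and S5 well above cKO S4 and S8. The means were 0.214 ± 0.158 and 2.54 ± 1.55 CPM (SD, n = 4), 11.9-fold higher in cKO. With 1 library left out, the fold ran from 9.61 (without control S1) to 18.2 (without control S2). On the log2 scale the fitted difference was 3.55 with an SE of 0.86 (edgeR adjusted p = 0.1347, unadjusted p = 0.001221), and DESeq2 gave an adjusted p of 0.00196. With 14 reads in the control group, the size of this fold is loosely held, and its 95% interval in edgeR ran from 3.22-fold to 42.6-fold.

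Of the other GDF ligands, Gdf11, a patterning signal of the developing cord, had the highest level per length. Gdf11 was at 23.3, 21.5, 17.4 and 14.5 CPM in control and 19.5, 20.3, 10.1 and 19.4 CPM in cKO libraries, with cKO S5 lowest of all. Its log2 fold change was -0.14 (95% interval -0.75 to 0.46), and 0.05 without cKO S5. Gdf10 was at 5.24 ± 1.49 CPM in control and 2.10 ± 2.05 CPM in cKO libraries, with 0 in cKO S5 (adjusted p = 0.6735). Gdf3 was between 0.741 and 1.15 CPM in every library. Gdf6 and Gdf9 had 34 and 68 reads in all 8 libraries together. Gdf1 had 1 read in the count tables, but group means of 21.1 FPKM in control and 13.6 FPKM in cKO in the authors' FPKM table, so the deposited measures disagree and its level is uncertain. The identifier counted as Gdf1 has no entry in the GENCODE release used here, so it has no exon length or coordinates.

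The 3 TGF-beta ligands did not share a direction: fitted levels of Tgfb1 and Tgfb2 were lower and that of Tgfb3 higher in cKO. Tgfb2 (chr1:186622792-186705989), the isoform with the highest level per length here, was at 66.4, 49.1, 49.8 and 62.2 CPM in control and 29.1, 48.2, 24.8 and 39.3 CPM in cKO libraries. All 4 cKO libraries lay below all 4 control libraries, with cKO S4 only just below control S2. The means were 56.9 ± 8.73 and 35.3 ± 10.5 CPM (SD, n = 4), 1.61-fold lower in cKO. The log2 fold change of -0.69 had an SE of 0.23 (edgeR adjusted p = 0.3098, unadjusted p = 0.009706). An opposite-strand gene overlaps 2.14% of the Tgfb2 exon length.

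Tgfb3 (chr12:86056745-86079041) was at 4.75, 3.06, 1.98 and 4.97 CPM in control and 4.85, 15.1, 36.8 and 5.82 CPM in cKO libraries. The excess lay in cKO S4 and S5, while cKO S3 lay within the control range and cKO S8 just above it. The means of 3.69 ± 1.43 and 15.6 ± 14.9 CPM differed 4.24-fold, or 2.32-fold without cKO S5. Its log2 fold change was 2.08 with an SE of 0.60 (edgeR adjusted p = 0.2275, unadjusted p = 0.004178), and DESeq2 gave an adjusted p of 0.0241. Opposite-strand genes overlap 12.4% of its exon length, and the strand setting of the counts is not given in the sources used here.

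Tgfb1, which microglia express strongly, was low and variable. It was at 1.27, 1.75, 0.220 and 6.92 CPM in control and 1.48, 2.31, 0 and 2.53 CPM in cKO libraries. The 2 lowest libraries, control S6 and cKO S5, were also the 2 with the lowest summed level of 8 microglia markers, 27.02 and 25.93 CPM, where all libraries ranged from 25.93 to 56.59. Aif1 of that list was at 0 in control S6, cKO S5 and cKO S8, and Tmem119 in cKO S5. Elsewhere the levels did not run together: control S7, with the most Tgfb1, had a microglia sum of 35.24 CPM, and cKO S3, with the highest sum of 56.59 CPM, had Tgfb1 at 1.48 CPM. The part of microglia in the Tgfb1 reads was not tested.

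Inhba encodes the subunit of activin A, a ligand of the Smad2 and Smad3 branch. Inhba (chr13:16011851-16031621) was at 8.81, 6.84, 6.26 and 7.96 CPM in control and 13.7, 12.1, 18.1 and 9.12 CPM in cKO libraries. The groups did not overlap, but cKO S8 was close to control S1. The means were 7.47 ± 1.14 and 13.2 ± 3.73 CPM (SD, n = 4), 1.77-fold higher in cKO. On the log2 scale this was 0.83 with an SE of 0.31 (edgeR adjusted p = 0.3867, unadjusted p = 0.01918), and the unadjusted p was 0.05688 without cKO S5.

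Inhbb, the subunit of activin B, was at 5.07, 7.57, 7.85 and 12.1 CPM in control and 2.86, 7.57, 12.1 and 4.41 CPM in cKO libraries. These ranges overlapped fully, with a log2 fold change of -0.27 (95% interval -1.28 to 0.73). Inhbc had 1 read in all libraries.

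**Figure D3:**
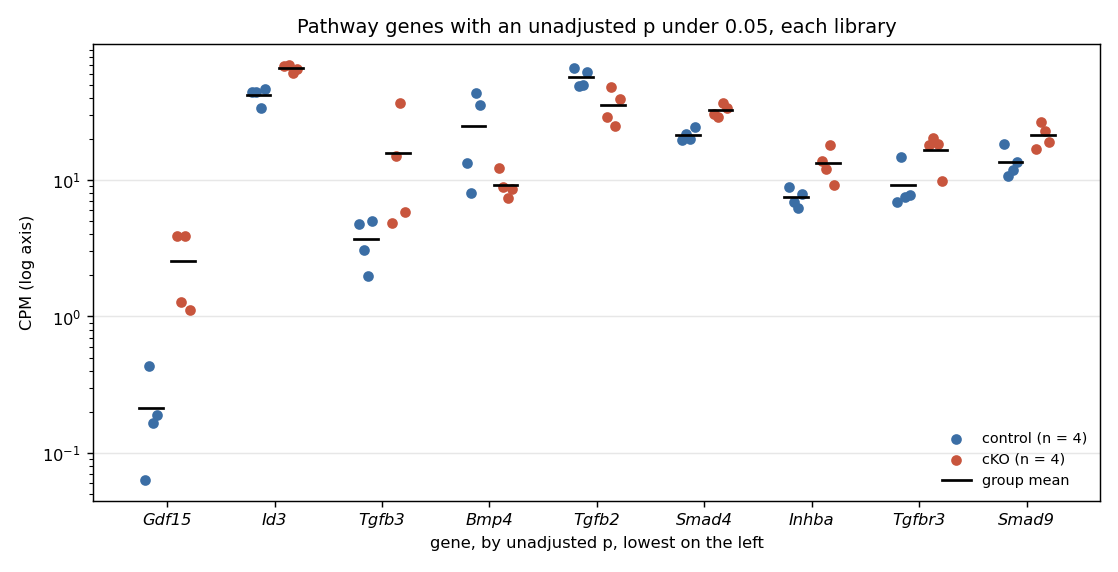
CPM on a log axis in each of the 4 control and 4 cKO libraries for the 9 genes with an unadjusted p under 0.05, with group means as bars. The cKO libraries all lie above the control libraries for Gdf15, Id3, Smad4 and Inhba and all below for Tgfb2, while the groups overlap for Tgfb3, Bmp4, Tgfbr3 and Smad9.

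No receptor kinase passed any threshold used here, and the most abundant ones were closely matched between the groups. Of the 7 type I receptors, 0 had an unadjusted p under 0.05 in edgeR's test, and their log2 fold changes ran from -0.67 to 0.20. Bmpr1a, a BMP type I receptor, was at 108, 94.6, 132 and 94.9 CPM in control and 114, 114, 102 and 118 CPM in cKO libraries. All cKO libraries lay inside the control range. The means were 107 ± 17.3 and 112 ± 7.18 CPM, and the 95% interval of the fold ran from 0.825 to 1.32. The other BMP type I receptor, Bmpr1b, was at 53.9 ± 4.49 and 52.7 ± 4.02 CPM, with an interval from 0.769 to 1.24.

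The remaining type I receptors were less abundant. Acvr1, which also binds BMPs, was at 26.1 ± 5.88 CPM in control and 30.05 ± 10.7 CPM in cKO libraries. Acvr1b, the activin receptor, was at 19.7 ± 2.95 and 20.5 ± 3.10 CPM. Tgfbr1, the TGF-beta type I receptor, was at 24.4 ± 7.20 and 23.3 ± 12.5 CPM, and its cKO libraries spread from 9.29 (S8) to 39.0 (S5). Acvr1c varied mostly among control libraries, from 18.1 in S7 to 57.4 CPM in S2. Acvrl1, the receptor of endothelial cells, stayed at or under 1.14 CPM and was at 0 in cKO S5. Endothelial markers, a list of 8 with 7 lower in cKO and none at 0 in any library, summed to 43.29 to 70.03 CPM in control and 23.31 to 56.54 CPM in cKO libraries. Their part in the Acvrl1 level was not tested.

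Among the 4 type II receptors, 0 had an unadjusted p under 0.05, and all 4 fitted log2 fold changes were above 0, from 0.01 to 0.56. Bmpr2, the BMP type II receptor, was at 85.4, 72.8, 94.2 and 79.5 CPM in control and 86.1, 78.5, 66.7 and 123 CPM in cKO libraries. The groups overlapped, with cKO S8 highest and cKO S5 lowest. Its log2 fold change was 0.10 (95% interval -0.33 to 0.52) and turned to -0.11 without cKO S8. Acvr2a was at 20.3 ± 3.49 and 23.1 ± 6.03 CPM, and Acvr2b at 1.60 ± 0.798 and 1.62 ± 1.33 CPM. Tgfbr2, the only type II receptor for TGF-beta, was low in both groups, at 2.68 ± 1.94 and 3.96 ± 1.73 CPM.

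Tgfbr3, or betaglycan, a co-receptor that presents TGF-beta2 to the kinases, was at 6.91, 14.8, 7.47 and 7.77 CPM in control. It was at 18.1, 20.1, 18.5 and 9.84 CPM in the cKO libraries. Control S2 stood apart from its group and lay above cKO S8, so the groups overlapped. The means were 9.23 ± 3.71 and 16.6 ± 4.61 CPM (SD, n = 4). Its fitted log2 fold change was 0.85 with an SE of 0.34 (edgeR adjusted p = 0.4188, unadjusted p = 0.0258), and 2 of the 8 fits that left out 1 library gave an unadjusted p under 0.05.

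The secreted antagonists were low, and the tested ones ranged from 0 to 9.12 CPM. Nog, the one with the highest level per length, was at 1.08, 1.02, 1.87 and 1.47 CPM in control and 1.84, 1.36, 0.114 and 1.16 CPM in cKO libraries. cKO S5 was the low library and the rest overlapped, and the log2 fold change was -0.28 (95% interval -2.0 to 1.44). Bmper was at 3.29 ± 1.14 and 3.68 ± 3.75 CPM, and Chrd at 0.784 ± 1.06 and 0.845 ± 0.417 CPM. Grem1 and Fst had 19 and 7 reads over all libraries and were not tested.

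Smad4, the common partner of all receptor-regulated Smads, was higher in every cKO library than in every control library. Smad4 (chr18:73639009-73703780) was at 19.7, 21.7, 19.9 and 24.4 CPM in control and 30.3, 29.1, 36.5 and 33.8 CPM in cKO libraries. The lowest cKO library, S4, stood above the highest control library, S7. The means of 21.4 ± 2.18 and 32.4 ± 3.39 CPM (SD, n = 4) differed 1.51-fold. On the log2 scale the difference was 0.60 with an SE of 0.20, which did not pass the threshold (edgeR adjusted p = 0.3107, unadjusted p = 0.009872, DESeq2 adjusted p = 0.0572).

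Of the receptor-regulated Smads on the BMP branch, Smad9 alone had an unadjusted p under 0.05. Smad9 (chr3:54755582-54801257) was at 18.3, 10.7, 11.9 and 13.6 CPM in control and 16.8, 26.8, 22.9 and 19.0 CPM in cKO libraries. Control S1 lay above cKO S3, and otherwise the cKO libraries were higher. Its log2 fold change was 0.65 with an SE of 0.26 (edgeR adjusted p = 0.4246, unadjusted p = 0.02758). In 5 of the 8 fits without 1 library the unadjusted p stayed under 0.05. Smad1 was at 23.9 ± 4.30 and 24.3 ± 2.35 CPM and Smad5 at 48.8 ± 6.47 and 47.5 ± 15.8 CPM, with 95% intervals of the fold from 0.734 to 1.40 and from 0.670 to 1.42.

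On the TGF-beta branch, Smad3 was at 50.7, 32.2, 45.4 and 55.6 CPM in control and 37.2, 42.1, 44.6 and 47.1 CPM in cKO libraries. The cKO libraries lay within the control range, and the log2 fold change was -0.11 (95% interval -0.54 to 0.33). Smad2 was at 13.4 ± 3.25 and 19.2 ± 4.06 CPM, with an interval from -0.07 to 1.10 (adjusted p = 0.5581).

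The inhibitory Smads are themselves targets of the pathway. Smad7 was at 14.5, 13.4, 11.6 and 15.4 CPM in control and 16.0, 16.3, 30.8 and 9.97 CPM in cKO libraries. cKO S5 was high, cKO S8 was the lowest of all 8, and the groups overlapped. Its log2 fold change was 0.41 with an SE of 0.33 and 0.04 without cKO S5. Smad6, which acts on the BMP branch, was at 1.72 ± 0.957 and 0.986 ± 0.190 CPM (adjusted p = 0.7624).

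Of the 4 Id genes, dominant-negative partners of basic helix-loop-helix factors, Id3 alone had an unadjusted p under 0.05. Id3 (chr4:136143497-136145755) was at 44.0, 44.0, 33.5 and 46.5 CPM in control and at 68.1, 69.9, 60.7 and 64.8 CPM in cKO libraries. The groups were well apart and each was tight, with every cKO library above every control library. The means were 42.0 ± 5.79 and 65.9 ± 4.03 CPM (SD, n = 4), 1.57-fold higher in cKO. Its fitted difference was 0.65 on the log2 scale with an SE of 0.17 (edgeR adjusted p = 0.1737, unadjusted p = 0.002013), and DESeq2 gave an adjusted p of 0.0135. All 8 fits that left out 1 library kept an unadjusted p under 0.05.

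Id2, the most abundant per length of the tested genes chosen by name, was at 110.3, 111, 75.9 and 99.4 CPM in control and 93.6, 85.5, 101 and 105 CPM in cKO libraries. The cKO libraries lay within the control range. The means were 99.2 ± 16.5 and 96.3 ± 8.52 CPM, and the log2 fold change of -0.04 (95% interval -0.40 to 0.31) became 0.06 with library totals as the scaling. Id1 was at 3.08 ± 0.999 and 3.16 ± 1.54 CPM and Id4 at 12.5 ± 3.88 and 14.0 ± 6.18 CPM, with fold intervals from 0.461 to 2.29 and from 0.660 to 1.91. Whether the Id3 difference exceeds those of the other Id genes was not tested.

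Bmp1 is a procollagen protease and Bmp2k a kinase, and neither is a ligand. Bmp1 was at 74.0, 62.8, 48.8 and 69.3 CPM in control and 55.7, 59.9, 58.5 and 49.7 CPM in cKO libraries, overlapping ranges with a log2 fold change of -0.19 (95% interval -0.56 to 0.19). Bmp2k was at 57.9 ± 4.14 and 62.6 ± 11.6 CPM.

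Levels of different genes were compared as CPM per kilobase of exon, with exon lengths from GENCODE. In control libraries Id2 led the tested genes chosen by name at 40.7 ± 6.75 (SD, n = 4), followed by Id3 at 23.5 ± 3.23 and Bmpr1a at 16.9 ± 2.73. Id2 stood at percentile 97.21 of all genes tested, Id3 at 94.38 and Bmpr1a at 91.73. In cKO libraries the same 3 genes led, and Id2 at 39.5 ± 3.49 and Id3 at 36.8 ± 2.25 CPM per kilobase were within their spread of each other.

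Per length, the BMP receptors Bmpr1a and Bmpr1b stood above Tgfbr1, and Bmpr2 above Tgfbr2. In control libraries Bmpr1b was at 9.05 ± 0.753 and Bmpr2 at 4.61 ± 0.506 CPM per kilobase, where Tgfbr1 was at 3.73 ± 1.10 and Tgfbr2 at 0.327 ± 0.237. Bmpr2 and Tgfbr1 did not differ beyond their spread. Tgfbr2 stood at percentile 7.307 of all genes tested. The ligands with the highest level per length were Bmp4 at 11.1 ± 7.51, Tgfb2 at 9.82 ± 1.51 and Bmp7 at 8.24 ± 1.83 CPM per kilobase, 3 neighbours within their spread of each other. Tgfb1 was at 0.503 ± 0.593 and Gdf15 at 0.115 ± 0.0856 in control and 1.37 ± 0.838 in cKO libraries. The order depends on the measure used. As control group means of the authors' FPKM, Id2 (112.7) and Id3 (57.9) also led. Smad3 (45.4), Bmpr2 (28.8) and Smad4 (26.1) stood above Bmpr1a (25.4) there, with Tgfbr2 at 0.729. Among the ligands Gdf1, whose deposited measures disagree, stood at 21.1 FPKM, between Bmp4 (24.6) and Tgfb2 (15.4). The part of gene length in these changes of order was not tested.

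**Figure D4:**
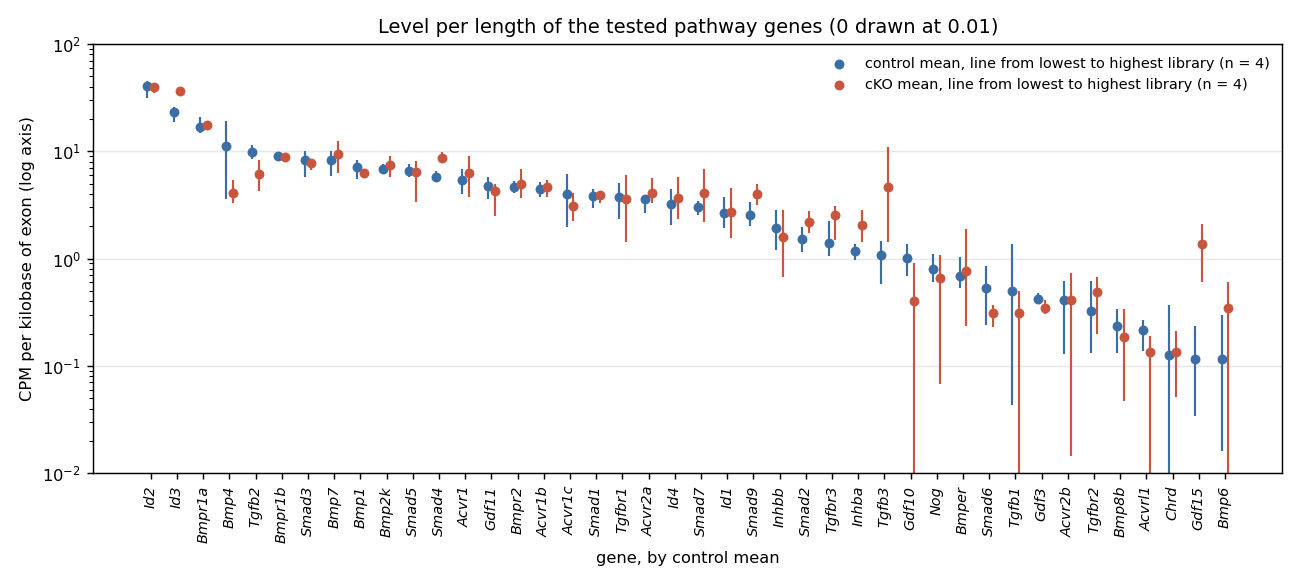
CPM per kilobase of exon on a log axis for the 42 tested genes, as the group mean with a line from the lowest to the highest of 4 libraries, ordered by the control mean (a library at 0 is drawn at 0.01). Id2, Id3 and Bmpr1a lead in both groups, Tgfbr2 stands far below Bmpr1a and Bmpr2, and Gdf15 is next to last in the control order and at 1.37 in cKO.

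A further list of 55 pathway genes that the name pattern did not take, covering latency and activation, co-receptors, antagonists, intracellular regulators and targets, had 38 tested members. None had an adjusted p under 0.05 in edgeR's test, and DESeq2 called 1, where these tests called 0.318% and 2.49% of all genes. An unadjusted p under 0.05 was found for 7 (18.4%, against 9.81% of all genes tested), 4 higher and 3 lower in cKO. A higher fitted level was found for 14 and a lower one for 24 (36.8% higher, against 48.4%). The median log2 fold change was -0.11. In 3 of the 38 genes (7.89%, close to the 6.34% of all genes tested) the groups did not overlap, Lrrc32 lower and Itgb5 and Nbl1 higher in cKO.

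Lrrc32, or GARP, which tethers latent TGF-beta to the cell surface, was at 3.11, 2.11, 3.02 and 16.6 CPM in control and 0.868, 0, 0 and 0.642 CPM in cKO libraries. All cKO libraries were lower, and control S7 stood far above its group. The means differed 16.4-fold, or 7.27-fold without control S7, and the log2 fold change was -4.01 with an SE of 1.14 (edgeR adjusted p = 0.2177, DESeq2 adjusted p = 0.00872). The cKO values rest on 17, 0, 0 and 15 reads, so the size of this fold is loosely held. Its 95% interval in edgeR, cKO over control, ran from 0.0112 to 0.344. The list of 8 endothelial markers given above was also lower in cKO for 7 genes, although control S7, highest for Lrrc32, had the lowest endothelial sum of the control libraries, 43.29 CPM. The part of these cells in the Lrrc32 difference was not tested.

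Itgb5, an integrin chain that can release latent TGF-beta, was at 27.3, 26.0, 33.4 and 25.2 CPM in control and 36.8, 42.1, 63.7 and 37.8 CPM in cKO libraries, with no overlap (log2 fold change 0.69, SE 0.22, edgeR adjusted p = 0.2831). Hey1, a target shared by the Notch and BMP pathways, was at 129, 132, 98.8 and 103 CPM in control and 129, 188, 261 and 158 CPM in cKO libraries. Control S2 lay above cKO S3, so its groups overlapped (log2 fold change 0.67, SE 0.21, edgeR adjusted p = 0.2741). The spread in both genes was widest on the cKO side, where S5 was the highest library.

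Msx1, a BMP target, was at 7.92, 6.48, 4.72 and 5.02 CPM in control and 7.76, 17.0, 14.9 and 7.75 CPM in cKO libraries, higher in cKO S4 and S5 only. Nbl1, a ligand antagonist, was at 3.42, 3.20, 1.32 and 0.426 CPM in control and 4.49, 3.54, 11.8 and 6.38 CPM in cKO libraries. These groups did not overlap, though control S1 and cKO S4 were nearly level. Rgmb, a BMP co-receptor, was at 9.89, 7.50, 17.0 and 10.5 CPM in control and 5.36, 9.89, 4.1 and 4.32 CPM in cKO libraries, overlapping at cKO S4. The remaining gene of the 7, Map3k7, a kinase of the Smad-independent branch, was at 54.4, 56.6, 93.3 and 74.9 CPM in control and 59.5, 48.3, 36.7 and 56.6 CPM in cKO libraries. Its groups overlapped, with a log2 fold change of -0.47 (edgeR adjusted p = 0.5055).

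The authors' deposited table, a DESeq2 comparison of the same libraries, gave an adjusted p for 33 of the 58 genes, and 3 of them were under 0.05, where 2.87% of the genes with an adjusted p in that table were. In the authors' deposited table Id3 had a log2 fold change of 0.61 (adjusted p = 0.01096), Tgfb3 1.27 (0.02457) and Smad4 0.56 (0.04797), and Bmp4 stood just outside at -1.04 (0.05908). DESeq2 1.42.0 on the deposited counts gave larger sizes, 2.08 for Tgfb3 and -1.43 for Bmp4. The authors' mean scaled counts of Tgfb3, 68.0 in control and 289 in cKO, also differ by more than their 1.27. Sizes of fold change are therefore not on the same scale in that table and in the fits above. Gdf15 has no adjusted p in the authors' deposited table, which gives it an unadjusted p of 2.1e-05. The sign of the fold change was the same in that table and in edgeR's fit for 42 of the 42 tested genes. Both fits use the same libraries, so this is no independent check.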

How the data were processed

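Total RNA of sorted cells was amplified to cDNA with the NuGEN RNA-Seq V2 kit, per the labels' protocols. The submitters' processing notes name FastQC 0.11.4, TopHat2 2.0.11, Bowtie2 2.2.3, HTSeq 0.6.1p1, DESeq2 1.14.1, Cuffnorm and Cufflinks 2.2.1 and the build GRCm38. The annotation release and strand setting are not given in the sources used here. The authors deposited whole-number read counts per gene for each library. The 5 summary lines of each count table (56.44% to 61.71% of reads) name no gene and were left out. The authors deposited a DESeq2 table, per the file headers, which holds mean scaled counts per group (a signal), log2 fold changes, their errors and test statistics (scores), and p-values with adjusted p-values. The authors deposited FPKM values too, and over 13791 genes 3 of the 8 columns tracked their namesake count library, while 8 of 8 tracked one of their own group. FPKM served for that check and, as group means, beside Gdf1, Bmp5 and the order of levels per length.

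Counts were tested with edgeR 4.0.16 (R 4.3.3; quasi-likelihood, TMM, filterByExpr with a minimum count of 10, no covariate), with p-values adjusted by Benjamini-Hochberg over all 14757 genes tested. DESeq2 1.42.0, limma-voom (limma 3.58.1), other scalings and filters, a covariate for Xist and leaving out each library were alternatives. The edgeR script was tested on simulated counts. Marker lists were compared with an exact permutation test over libraries, whose smallest 2-sided p is 0.0286. GENCODE mouse release 21 (GRCm38) gave exon lengths, coordinates and symbols (37607 of 39179 identifiers), and RefSeq gave the sequences. Values in every library are given for genes with an unadjusted p under 0.05 (of the further list, at most the 6 lowest, plus Map3k7) and for the most abundant gene per length of each role. Tgfb1, which falls outside this rule, is given by library beside the microglia markers. The pathway genes, the other gene lists and this rule were chosen with earlier results of these data known. Strand being unstated, reads of a gene and its antisense partner cannot be told apart. Python 3.11.15, scipy 1.17.1 and matplotlib 3.10.9 were used.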

Additional observations from a re-analysis of the deposited data

Results flagged for a closer look

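In 66 groups of 4 libraries, 3 held a library whose gap to its nearest neighbour, as a share of the group's range, exceeded Dixon's critical value, where chance would give about 3.3. Tgfbr3, the betaglycan co-receptor, was at 14.78 CPM in control S2 against 6.91 to 7.77 CPM in its group's other libraries. Gdf11 was at 10.09 CPM in cKO S5 against 19.4 to 20.3 CPM elsewhere in its group. Lrrc32, which tethers latent TGF-beta, was at 16.58 CPM in control S7 against 2.11 to 3.11 CPM in control S1, S2 and S6.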

How the results depend on the processing

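The count of pathway genes past the threshold was 0 in every edgeR and limma-voom setting and without each library in turn (0 to 0), and 3 with DESeq2; of the other pathway genes it was 0, without each library 0 to 0, and 1 with DESeq2. Over all genes it was 47, and 87 with a filter of 1 count in any library, 84 with 10 counts in every library, 384 with DESeq2 and 28 with Xist as a covariate; without each library it ran from 4 (without cKO S4) to 45 (without cKO S3), and was 14, 16 and 24 without control S2, control S6 and cKO S5, and 30, 28 and 40 without control S1, cKO S8 and control S7. The cause of these shifts was not tested. Pathway genes at an unadjusted p under 0.05 numbered 9, and 7 to 9 without each library. Those higher in cKO numbered 24, and 21 to 25. Those with no overlap numbered 5, and 6 to 9 with 3 libraries in one group, where separation is easier (9 without control S2, 8 without cKO S8). Of the alternative values of single named genes, 376 stayed on their side of the threshold, and 4 passed it with DESeq2 (Gdf15, Id3, Tgfb3, Lrrc32). Of the 376, 8 turned sign, all in genes past no threshold: Gdf11 and Nog without cKO S5 (0.05 and 0.10), Bmpr2 without cKO S8 (-0.11), Smad3 without control S7 (0.01), and Id2 with library totals (0.06) and without control S1, control S2 or cKO S4 (0.01, 0.02 and 0.01). No paired analysis was possible because no label gives a pairing. P-values measure the spread among 4 libraries a group, with a biological coefficient of variation of 0.473. The standard error of the log2 fold change was 1.15 for Bmp6, with few reads, and 0.16 for Bmpr1a, with many.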

Other observations

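Several genes that activate latent TGF-beta or present ligands were more abundant per length than most of the ligands and receptors above. In control libraries Rgma, a BMP co-receptor of the repulsive guidance family, was at 52.6 ± 3.46 CPM per kilobase (SD, n = 4), above Id2, the leading gene of those chosen by name. Itgb8 and Itgav, the chains of the integrin that frees latent TGF-beta in glia, were at 35.3 ± 5.60 and 30.7 ± 4.66, and Neo1, a receptor of Rgma, was at 22.7 ± 6.31. Pmepa1, an intracellular brake on TGF-beta signalling, was at 22.1 ± 1.67. None of the 5 had an adjusted p under 0.05 between the groups in edgeR's test. The 95% intervals of the fold, cKO over control, were 0.709 to 1.09 for Rgma, 0.618 to 1.04 for Itgb8, 0.832 to 1.34 for Itgav, 0.626 to 1.13 for Neo1 and 0.747 to 1.18 for Pmepa1. These genes were singled out after their values were seen.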
